A study of Gallus gallus with 9 samples.

Results

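The 81 genes described here held nearly the same level in all 9 libraries of chick dorsal mesentery, from the start to the end of intestinal looping. They were chosen from the measured values: a mean level of at least 50 and under 1000 CPM, and a largest library at most 25% above the smallest. CPM, the usual read count scaled to a common library total, was taken after multiplying that total by the library's TMM factor (trimmed mean of M-values), which sets the typical gene equal between libraries. Of 24356 genes in the table, 14172 passed the low-count filter (at least 1 CPM in 3 or more libraries) and 4305 lay in that range of mean level, so the 81 were 1.88% of the genes that could qualify by level. Because these values chose the genes, their steadiness is given as a description with no test.

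The mesentery is the sheet of connective tissue that tethers the gut tube to the body wall and carries its vessels and nerves. In the chick, the gut grows faster than the mesentery and buckles into loops. Genes whose transcripts stay level while a tissue matures are of practical use, because RNA measurements between stages are read against such reference genes. Genes needed by every cell, for protein synthesis, protein turnover or membrane traffic, are the usual candidates, although many of them are known to shift with growth and differentiation.

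All libraries were poly(A)-selected RNA from wild type White Leghorn embryos. The groups were embryonic days 8, 12 and 16 (E8, E12, E16), when looping begins, is under way and is complete. Each stage had 3 libraries, and each library was a pool of mesenteries from 3 embryos without the gut tube and the superior mesenteric artery. Between 22.96 and 30.62 M (mega) reads per library were counted in genes. The count table gives Ensembl gene IDs only, and 0 of the 24356 IDs, thus 0 of the 81, were found in the RefSeq gene table used here. The genes are therefore given by ID, without name, role or sequence, and neither the tissue's markers nor lists of reference genes or complexes could be looked up. In such bulk tissue, fewer cells of a type and less RNA per cell cannot be told apart, and a level gene may hide opposite shifts in different cell types.

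The steady genes lay mostly in the lower part of the allowed range of level. Their mean levels ran from 51.02 to 664 TMM CPM with a median of 95.9, close to the median of 94.9 for the 4224 other genes of that range. A mean of at least 100 CPM was reached by 38 of the 81, at least 200 by 8 and at least 500 by 2. These are read levels, not corrected for transcript length. The ratio of the largest to the smallest library had a median of 1.21 among the 81, with quartiles of 1.18 and 1.23, and 35 genes were at or below 1.2. Among the other 4224 genes its median was 2.09.

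**Figure D1:**
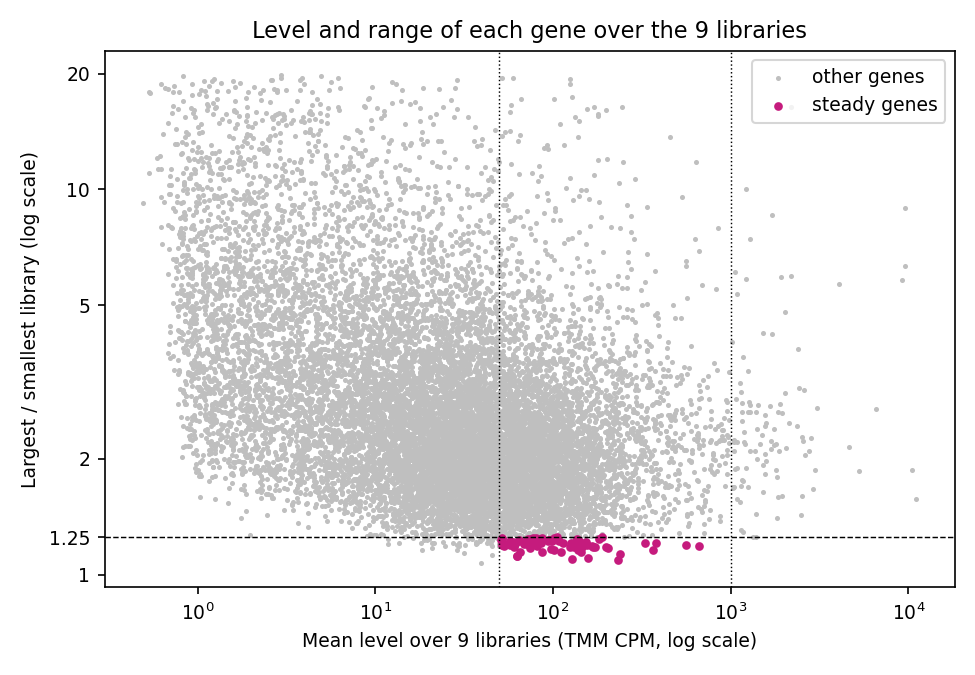
Each point is a gene that passed the low-count filter. The x axis is the mean level over 9 libraries (TMM CPM, log scale), the y axis the largest divided by the smallest library (log scale), the dotted lines mark 50 and 1000 CPM and the dashed line the limit of 25% above the smallest. The 81 steady genes lie under the dashed line, and 373 genes with a ratio over 20, or none because their smallest level was 0, are not drawn.

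The smallest range of the 81 belonged to ENSGALG00000006753. It stood at 245, 229 and 246 TMM CPM in E8 replicates 1, 2 and 3, at 229, 229 and 227 at E12 and at 226, 229 and 232 at E16. Its ratio of largest to smallest was 1.09. E8 overlapped both other stages through replicate 2 alone, and E8 replicates 1 and 3 lay above all E12 and E16 values. ENSGALG00000016124 followed with 132, 127 and 132 CPM at E8, 132, 125 and 121 at E12 and 129, 124 and 133 at E16, a ratio of 1.1. No stage stood apart from the others in this gene.

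ENSGALG00000002014 had 157, 164 and 156 CPM at E8, 153, 149 and 162 at E12 and 162, 152 and 156 at E16, again with overlapping stages and a ratio of 1.1. ENSGALG00000006088 had 62.3, 59.3 and 66.1 CPM at E8, 63.9, 65.8 and 65.2 at E12 and 60.2, 61.7 and 59.6 at E16, a ratio of 1.12. Its E12 values all lay above its E16 values, while E8 spanned both. ENSGALG00000004156 had 62.9, 66.9 and 62.4 CPM at E8, 64.2, 59.8 and 61.7 at E12 and 62.5, 63.4 and 63.7 at E16, a ratio of 1.12. Its E8 mean of 64.1 ± 2.48 CPM and E12 mean of 61.9 ± 2.17 (SD, n = 3 each) differed by less than the SD at E8.

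The 5 members with the highest read level ranged from 330.2 to 664 CPM. At their head, ENSGALG00000005393 stood at 664, 591 and 632 CPM at E8, 692, 703 and 645 at E12 and 700.1, 648 and 697 at E16. Its lowest library was E8 replicate 2, and the stages overlapped. ENSGALG00000001652 had 607, 509 and 574 CPM at E8, 576, 544 and 552 at E12 and 566, 549.6 and 581 at E16. Here both the highest and the lowest library were at E8, and the means of the 3 stages were 563, 557 and 566 CPM. The other 3 were ENSGALG00000012798, ENSGALG00000006474 and ENSGALG00000009598, with means of 383, 368 and 330.2 CPM.

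The threshold cut through a dense run of genes. ENSGALG00000008797, just inside at a ratio of 1.2497, had 105, 105 and 114 CPM at E8, 102, 112 and 105 at E12 and 104, 90.9 and 106 at E16. ENSGALG00000037968, just outside at 1.2501, had 195, 174 and 193 CPM at E8, 165, 176 and 156 at E12 and 172, 179 and 177 at E16. In the former the lowest value came from the single library E16 replicate 2, whereas in the latter all but 1 of the E12 values were below all E8 values. With the largest library at most 1.2 times the smallest 35 genes were left, and with 1.3 times there were 156.

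The range allowed by the rule was wide against counting error. The members' counts per library ranged from 1019 to 20732. Counting error alone amounts to a coefficient of variation (SD over mean) of 0.75% to 2.68% for their mean counts, with a median of 1.96%. Their observed coefficient of variation over the 9 libraries ranged from 3.06% to 8.60%, with a median of 6.22%. The chi-square statistic per degree of freedom against a constant level, which is near 1 for counting noise, had a median of 10.3 and was under 2 for 1 of the 81, ENSGALG00000004156. The steady genes thus still varied between libraries by more than read sampling. In the other 4224 genes of the range the median coefficient of variation was 26.2%.

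**Figure D2:**
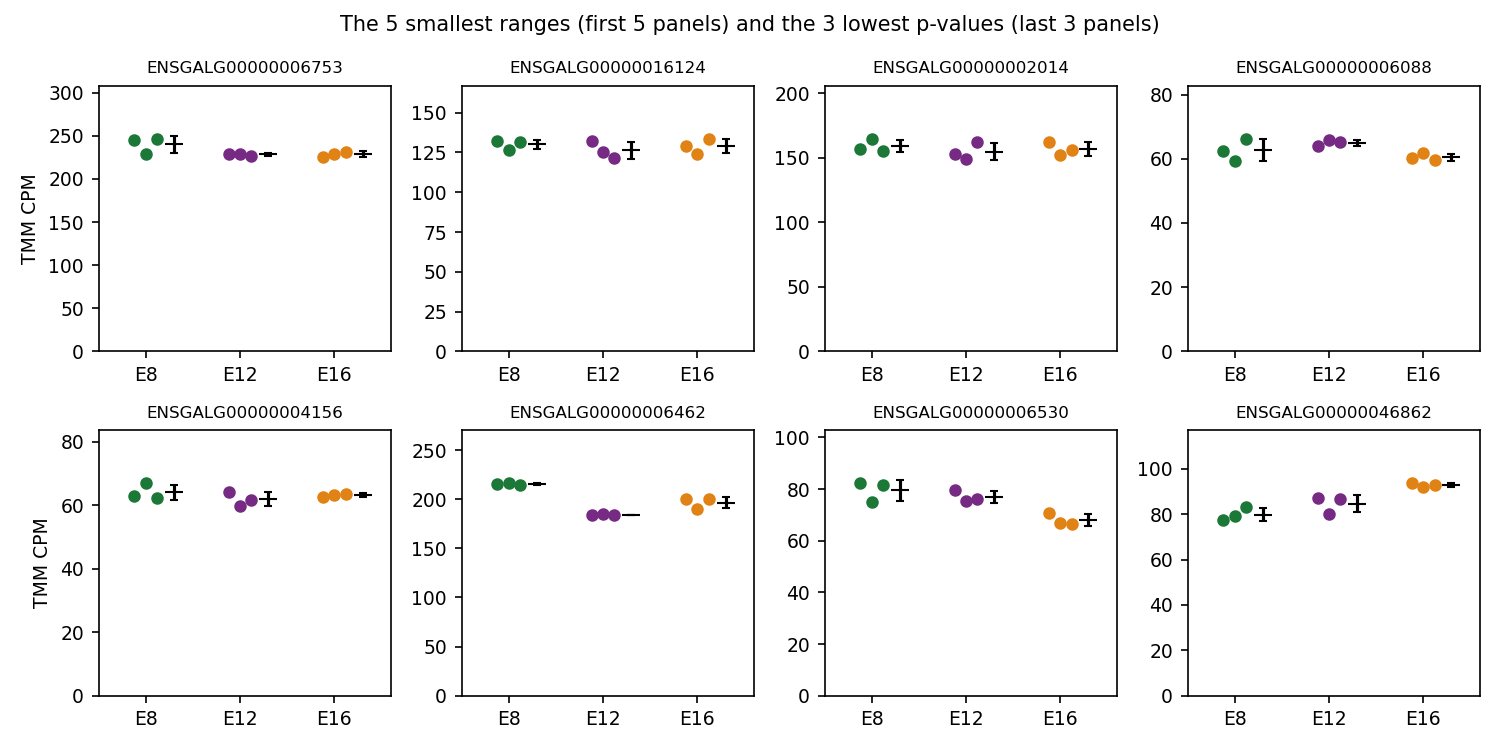
TMM CPM by stage for the 5 members with the smallest range and the 3 with the lowest unadjusted p between any pair of stages. Coloured points are the 3 libraries of a stage, black bars the mean and SD, and every y axis starts at 0. In ENSGALG00000006462 the E8 values, 214 to 216 CPM, lie above all others.

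What the steady genes retained of stage differences was then described. Among the 81, the highest stage mean was at E8 in 37 genes, at E12 in 23 and at E16 in 21. The lowest stage mean was at E8 in 20, at E12 in 25 and at E16 in 36. These counts stand without the same over all genes, so nothing is read from them as a trait of the members. The largest stage mean was 1.08 times the smallest in the median member and 1.17 times at most. Within stages, the median member's largest replicate was 1.08 times the smallest at E8 and 1.09 times at both E12 and E16. A range of means of 3 libraries and a range of single libraries are unlike quantities, and both were limited by the rule.

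No member was called in any pair of stages by edgeR's quasi-likelihood test with Benjamini-Hochberg adjustment over all 14172 genes. Of all genes tested, 55.3% were called from E8 to E12, 56.5% from E12 to E16 and 51.2% from E8 to E16. The members were selected for small differences in these same contrasts, so nothing is read from the count of 0. At an unadjusted edgeR p under 0.05 there was 1 member from E8 to E12, 0 from E12 to E16 and 1 from E8 to E16, where the shares of all genes were 60.7%, 61.4% and 57.2%. With limma-voom 0 of 81 were called in each pair, where 56.2%, 56.7% and 51.8% of all genes were. With DESeq2 there were 2, 0 and 1, where the shares of all genes were 57.1%, 57.6% and 52.9%. Without E12 replicate 1, edgeR called 2 members from E8 to E12 and 2 from E8 to E16, where 63.4% and 57.1% of all genes were called.

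The members' log2 fold changes lay between -0.23 and 0.19 from E8 to E12, between -0.21 and 0.18 from E12 to E16 and between -0.22 and 0.22 from E8 to E16. Their medians were -0.02, -0.02 and -0.03, and those of all genes tested were -0.01, -0.01 and -0.06. A median standard error of 0.11 was found in each pair, from a fit that draws each gene's spread toward that of other genes. The 95% intervals reached a median of 0.23 to either side. The rule limited these differences, so the values describe the members and support nothing further.

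The member with the lowest p was ENSGALG00000006462, and its pattern was regular. It stood at 215, 216 and 214 CPM at E8, at 184, 184.5 and 184 at E12 and at 200.4, 189.6 and 199.7 at E16. The 3 stages did not overlap, and the replicates of E8 and of E12 each lay within 1.01-fold. The log2 fold change at E12 relative to E8 was -0.23 (SE 0.10), with an edgeR p of 0.036 and an adjusted p of 0.062. This SE draws on the spread of other genes too, not on these replicates alone. DESeq2 gave an adjusted p of 0.0477 for it.

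ENSGALG00000006530 had 82.2, 74.8 and 81.5 CPM at E8, 79.7, 75.2 and 76.2 at E12 and 70.9, 66.9 and 66.5 at E16. All E16 values were below all values of the other stages. Its log2 fold change from E8 to E16 was -0.22 (SE 0.10, edgeR adjusted p of 0.087). ENSGALG00000046862 had 77.3, 79.1 and 83.1 CPM at E8, 86.9, 80.2 and 86.6 at E12 and 93.6, 92.0 and 92.7 at E16. Its E16 values were above all others, with a log2 fold change from E8 to E16 of 0.22 (SE 0.10, edgeR adjusted p of 0.088). DESeq2, which scales libraries by its own size factors, gave this gene a log2 fold change of 0.27 and an adjusted p of 0.0193. With relative log expression factors, another scaling of the libraries, edgeR also gave 0.27, with an adjusted p of 0.0452. Without E12 replicate 1 the edgeR log2 fold change was 0.29 and the adjusted p 0.0136. Of the 81 members, 19 had stage values that did not overlap from E8 to E12, 19 from E12 to E16 and 21 from E8 to E16. The shares of all genes tested were 62.5%, 60.5% and 65.3%.

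Within the narrow band set by the rule, some pairs of members moved together and others moved oppositely. The Pearson correlation of log2 levels between 2 members over the 9 libraries ranged from -0.95 to 0.95 over 3240 pairs, with a median of 0.11. These values share the same libraries and scaling. The rule and the TMM factors limited shared movement, and the same was not computed for other genes, so they are a description only. Single libraries were more often at the edge of the band than others. E8 replicate 1 was the largest of the 9 libraries in 21 members and the smallest in 1. E8 replicate 2 and E16 replicate 2 were each the smallest in 16, and E12 replicate 2 in 14. E16 replicate 3 was the largest in 13 and the smallest in 9, and E12 replicate 3 in 12 and 6. The same was not counted over all genes, so nothing is read from these counts as a trait of the members.

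**Figure D3:**
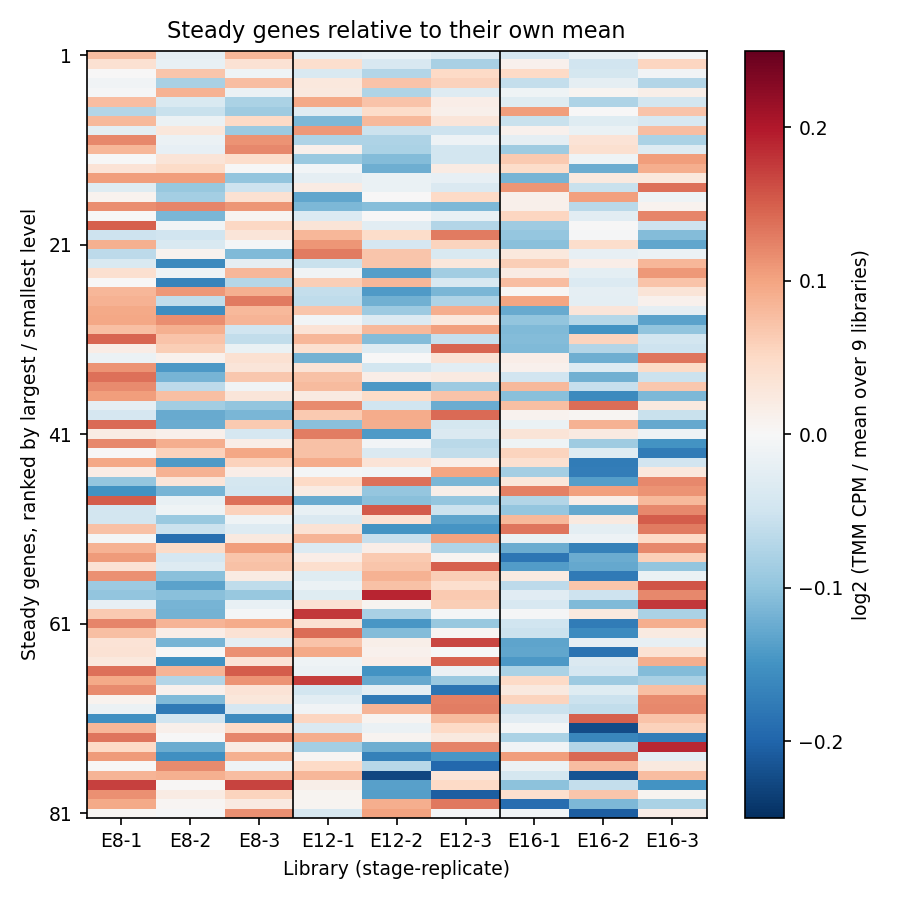
Each row is 1 of the 81 steady genes, ranked by the ratio of largest to smallest level, and each column a library. Colour gives the log2 ratio of the TMM CPM to the gene's mean over 9 libraries. Red prevails in E8 replicate 1, the largest library in 21 genes, and blue is frequent in E16 replicate 2, the smallest in 16.

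How replicates and stage means kept to the limit was described over the 4305 genes in the range of level. All 3 E8 replicates lay within the 25% limit for 81.2% of these genes, and all 3 E16 replicates for 65.9%. At E12 this held for 39.6%. Within E12, replicate 1 differed from the other replicates. Replicates 2 and 3 were within that limit for 84.0% of the genes, replicates 1 and 2 for 52.5% and replicates 1 and 3 for 56.0%. Replicate 1 was nevertheless the library closest to the other 8, with 42.2% of genes of that level within 1.1-fold of their mean. E12 replicates 2 and 3 were the farthest, at 16.8% and 15.3%. They also had the smallest shares of reads outside annotated features, 11.03% and 13.5% of all reads in the table, against 16.6% in replicate 1. The part of this share in the difference was not tested. The replicates of all 3 stages passed for 1133 genes, or 26.3%. Stage means lay within the same limit for 484 genes, or 11.2%. Both conditions were met by 272 genes, and 81 of these held all 9 libraries within the limit. Stage means and single libraries are unlike quantities, so these shares do not rank replicates against stages.

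More genes were steady over 2 stages than the 81 steady over all 3. Fewer libraries make the limit easier to keep by construction, so the excess is not read as change at the remaining stage. The 25% limit was kept over 6 libraries by 501 of the 4305 genes for E8 and E12 together, 273 for E12 and E16, and 592 for E8 and E16. The rule was also applied to 6 libraries, with the range of mean level taken over these alone, and the stage left out was then examined; this step was chosen after the data were seen. Of 524 genes steady over E8 and E12, 229 (43.7%) had an E16 mean no more than 25% above or 20% below their earlier mean, where 41.2% of all 4300 genes of that level did. The E16 mean was lower than that in 254 of the 524 (48.5%) and higher in 41 (7.82%), against 38.2% and 20.6% of all genes of that level. Of 579 genes steady over E8 and E16, 251 (43.4%) had an E12 mean inside this band, against 36.7% of all genes of that level. The E12 mean was lower in 26.4% and higher in 30.2%, against 23.4% and 40% of all genes of that level. Of 269 genes steady over E12 and E16, 181 (67.3%) had an E8 mean inside the band, against 48.2%. The E8 mean was lower in 19.3% and higher in 13.4%, against 31.1% and 20.7%. Of the 524, 579 and 269 genes, 81, 80 and 81 were among the 81 members. The choice of the members used the stage left out, so they lay inside the band by construction. The TMM factors were those of all 9 libraries, so the shares are not separate from the choice. Genes are not replicates, so these shares carry no test.

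The level in a library left out of the choice was also described. Each library was left out in turn, the rule was applied to the other 8, and between 87 and 126 genes passed. The left-out library lay within 1.1-fold of the mean of the other 8 for between 49.2% of them (E16 replicate 2) and 87.4% (E8 replicate 3). For all genes of the same level the share was between 15.3% (E12 replicate 3) and 42.2% (E12 replicate 1). In each of the 9 libraries the share was higher among the genes steady elsewhere, and the narrowest margin was that of E16 replicate 2, at 49.2% against 22.0%. The median deviation in the left-out library was 0.07 to 0.14 on the log2 scale for the chosen genes and 0.17 to 0.44 for all genes of that level. All 81 members were among the genes chosen each time, and the rule had already limited their level in the library left out. Of the chosen genes, between 64.3% (without E16 replicate 2) and 94.3% (without E8 replicate 3) were also steady with that library included. The TMM factors were those of all 9 libraries, and 2 of the 8 other libraries shared the stage of the one left out. These readings are thus not separate from the choice. Genes picked as level over 8 libraries were likely to show the higher share, so nothing is read from it.

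**Figure D4:**
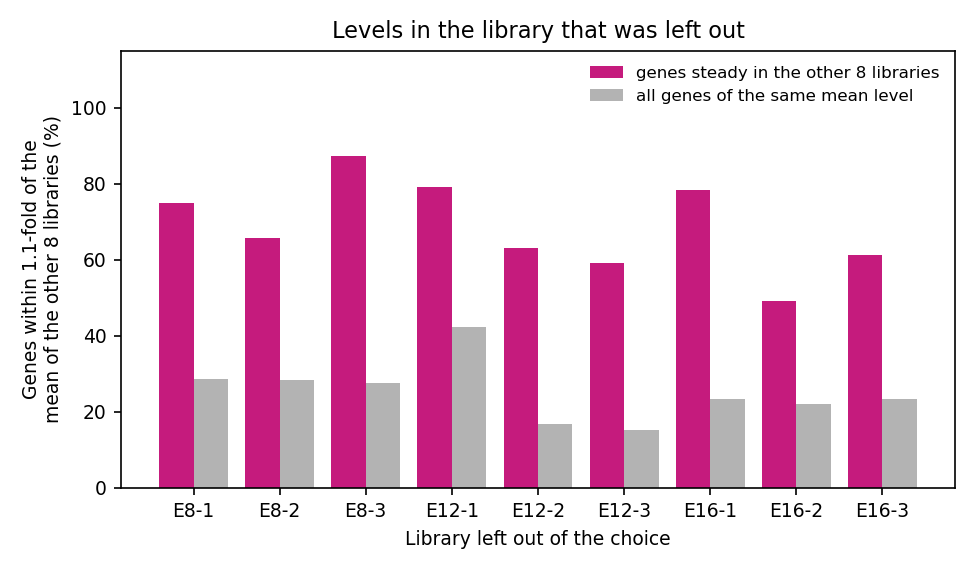
For each library, the bars give the percentage of genes whose level there was within 1.1-fold of their mean over the other 8 libraries. Coloured bars are genes steady in those 8 (87 to 126 genes) and grey bars all genes of the same mean level. Each coloured bar is the taller of its pair, with the smallest margin at E16 replicate 2, 49.2% against 22.0%. The coloured bars include the 81 steady genes, whose choice used all 9 libraries, so nothing is read from the margins.

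Steadiness was relative to the scaling of the libraries. The TMM factors ran from 0.860 in E12 replicate 2 to 1.12 in E8 replicate 2. With CPM on total gene counts alone, the median member stood at 1.12, 1.1 and 1.12 times its own mean in the 3 E8 libraries, at 1.02, 0.845 and 0.914 times in E12 replicates 1, 2 and 3, and at 0.962 to 0.971 times at E16. The E8 libraries were then the highest and E12 replicates 2 and 3 the lowest. The 81 genes together took between 0.875% of gene counts in E12 replicate 2 and 1.16% in E8 replicate 1. Reads outside annotated features were likewise fewest in E12 replicates 2 and 3, at 11.03% and 13.5% of all reads in the table, against 16.6% to 20.4% in the other libraries. All E12 libraries had smaller shares than any E8 or E16 library, so this property and the E12 stage cannot be told apart here. Its part in the steadiness was not tested, and a fit of the stage pairs with it as a covariate is given below.

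With total counts, 8 of the 81 still kept the 25% limit, and the median ratio of the 81 was 1.38. The rule then chose 61 genes, of which 8 were among the 81. With that scaling edgeR called 36 of the 81 from E8 to E12 and 20 from E8 to E16, all of them lower at the later stage, at an adjusted p under 0.05, and 0 from E12 to E16. The shares of all genes called with that scaling were 54.0%, 54.7% and 54.1%. The median log2 fold change of all genes was then -0.26 from E8 to E12 and -0.24 from E8 to E16, and that of the members -0.26 and -0.21. Since the members were chosen as level under TMM and this scaling moves all genes of a library alike, the one follows the other by construction. Scalings of the same kind as TMM chose sets of like size with partly other genes: 88 with relative log expression factors, 68 of them among the 81, and 78 with upper quartile factors, 54 of them among the 81. With the relative log expression factors edgeR called 0, 0 and 1 of the 81 from E8 to E12, from E12 to E16 and from E8 to E16, where 55.2%, 56.0% and 50.6% of all genes were called. With the reads outside features as a covariate it called 0, 0 and 2, where 3.70%, 18.8% and 56.8% of all genes were called. As this share was lowest at E12, the covariate and the E12 stage cannot be told apart in that fit. The gene filter acted through the factors too. With filterByExpr 87 genes were chosen, 77 of them among the 81, and with no filter 77 genes, 50 of them among the 81.

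**Figure D5:**
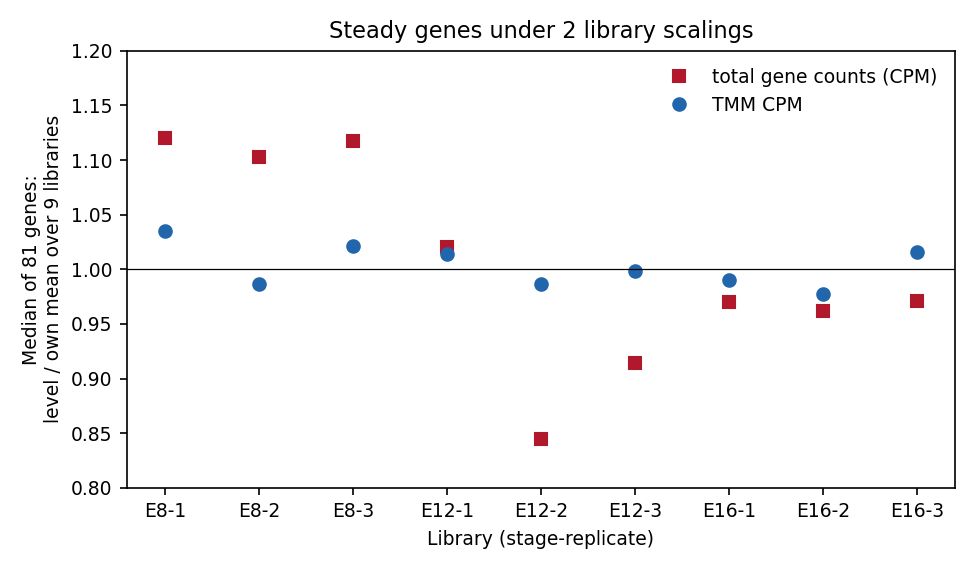
The median over the 81 steady genes of the level in a library divided by the gene's own mean over 9 libraries. Circles use TMM CPM and squares CPM on total gene counts, and the y axis runs from 0.8 to 1.2. Circles stay between 0.978 and 1.03, while squares run from 0.845 in E12 replicate 2 to 1.12 in E8 replicate 1.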

How the data were processed

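The authors deposited 1 table of raw read counts per Ensembl gene ID for the 9 libraries, without normalization. The submitters' processing notes name FastQC 0.11.9, cutadapt 3.1, Trim Galore, HISAT2 2.2.1, HTSeq 0.13.5, DESeq2 and the build GRCg6a. The annotation release and strand setting are not given in the sources used here, so counts are uncertain for genes that overlap, lie antisense to another or have a near-identical copy. The table's 5 rows of reads assigned to no gene (34.6% of all reads in the table) stayed out of library sizes and tests.

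The steady genes, their thresholds and the lists were chosen with earlier results of these data known. Genes with at least 1 CPM in 3 or more libraries were scaled with TMM factors. Pairs of stages were tested in 1 robust quasi-likelihood fit of edgeR 4.0.16 (R 4.3.3) to all 9 libraries, with Benjamini-Hochberg adjustment over 14172 genes. The code of this fit was run on simulated data with few changed genes and the same spread for every gene. These data differ in both respects, so that run does not check the scaling or the fit for them. Standard errors are the absolute log2 fold change over the square root of F. Alternatives were DESeq2 1.42.0, limma-voom (limma 3.58.1), other scalings, filters and thresholds, a covariate, a replicate block and left-out libraries. Replicate pairs within stages differed by more than sampling noise (chi-square per degree of freedom 8.74 to 85.1), so each library counted as 1 replicate. The p-values rest on the spread between pools, but the fit draws each gene's spread toward that of other genes tested. For genes chosen for a small spread, the standard errors, intervals and p-values thus rest in part on other genes. Named by a fixed rule were the members with the smallest range, highest level and lowest p, and those beside the threshold. Lists of reference genes, complexes and markers needed symbols and were not used. Counting errors cover read sampling only, since reads of 1 amplified molecule cannot be recognised without identifiers.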

Additional observations from a re-analysis of the deposited data

How the results depend on the processing

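The number of steady genes was 35 with the largest library at most 1.2 times the smallest and 156 with 1.3 times, against 81. With all libraries of a stage left out, an alternative chosen after the data were seen, it was 269 without E8, 579 without E12 and 524 without E16. Leaving out each library in turn gave 87 to 126 genes, the most without E16 replicate 2. A smaller number of libraries makes the condition easier by construction. The other scalings and filters kept the number within 1.5-fold but changed which genes were chosen, as given above.

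No member was called in the 3 pairs of stages, where 55.3%, 56.5% and 51.2% of all genes were called from E8 to E12, from E12 to E16 and from E8 to E16. Total counts gave 36 members from E8 to E12 and 20 from E8 to E16, where 54.0% and 54.7% of all genes were called. From E8 to E12, DESeq2 called 2, ENSGALG00000006462 and ENSGALG00000036300, where 57.1% of all genes were called. From E8 to E16, DESeq2 called 1 and relative log expression factors 1, both times ENSGALG00000046862, with 52.9% and 50.6% of all genes called. A fit to the 6 libraries of the 2 stages called 2 (that gene and ENSGALG00000002542, with 57.2% of all genes called). A covariate for reads outside features gave 2 (ENSGALG00000046862 and ENSGALG00000001741, with 56.8% of all genes called). Leaving out each library in turn gave 0 to 2 calls from E8 to E12, 0 to 2 from E8 to E16 and 0 from E12 to E16, where 43.5% to 63.4%, 41.6% to 57.1% and 46.6% to 62.7% of all genes were called, and both nonzero counts came without E12 replicate 1 (ENSGALG00000036214 and ENSGALG00000036300, then ENSGALG00000002542 and ENSGALG00000046862). The TMM factors were computed anew for each set of libraries. Without E12 replicate 1, the median log2 fold change from E8 to E16 was 0.01 for all genes and 0.04 for the members. With all 9 libraries these medians were -0.06 and -0.03. Without E8 replicate 1 they were 0.01 and 0.05, with 0 members called. The part of the scaling in these calls was not tested. With the replicate block, 0 members were called in each pair, where 53.9%, 55.3% and 50.5% of all genes were called from E8 to E12, from E12 to E16 and from E8 to E16. Same-numbered libraries came from different embryos, their deviations from the stage means correlated at -0.16 to 0.19, and the own number correlated best in 6 of 18 cases, so the numbers were not treated as pairs. The planned comparison with conventional reference genes was not run, for lack of symbols.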

Other observations

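Steady genes also occurred outside the chosen range of level. The largest library was at most 25% above the smallest for 44 of 5644 genes (0.78%) with a mean of 10 to under 50 TMM CPM, for 0 of 3726 with a mean of 1 to under 10 and for 1 of 107 (0.935%) at 1000 or more. Inside the range the shares were 1.87% of 2305 genes at 50 to under 100 CPM, 2.35% of 1275 at 100 to under 200, 1.03% of 581 at 200 to under 500 and 1.39% of 144 at 500 to under 1000. Counting error is larger relative to the mean at lower read counts, and its part in these shares was not tested.

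A pair of genes outside the range was singled out after the values were seen. ENSGALG00000009566 had the smallest ratio of all genes tested, 1.07, at 40.4, 39.2 and 38.8 CPM at E8, 39.5, 38.6 and 40.2 at E12 and 37.7, 39.97 and 38.6 at E16. Its coefficient of variation of 2.24% was below the 3.06% of counting error alone. The gene above 1000 CPM was ENSGALG00000016691, at 1479, 1539 and 1411 CPM at E8, 1345, 1504 and 1389 at E12 and 1254, 1276 and 1232 at E16. Its E16 values were all below those of both other stages, and its log2 fold change from E8 to E16 was -0.24 (SE 0.11, edgeR adjusted p of 0.093).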
